A study of Mus musculus with 6 samples.

Results

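The cornified envelope is the protein shell that keratinocytes build under their membrane in the last steps of differentiation. The genes described here encode its cross-linking enzymes, the enzymes that modify its proteins and the late proteases that act with them. The set was given as a list of 10 names: Tgm1, Tgm2, Tgm3, Tgm5, Casp14, Asprv1, Padi1, Padi3, Bleach and St14. Of these, 9 were found among the 41253 gene symbols of the count files, and all 9 passed the filter on low counts, which left 17663 genes. Bleach is not a gene symbol in the files, so it has no value here. Bleomycin hydrolase (Blmh), a late keratinocyte protease on a separate list, is given with the other proteases and was not counted as a member.

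RNA was sequenced from oesophageal squamous cell carcinomas of C57BL/6 mice, 3 labelled Ptpro-/- (here Ptpro-KO) and 3 labelled wild type (WT). Both groups had drunk the carcinogen 4NQO, given as 100 mg/mL in the labels, from 6 weeks of age for 16 weeks. They were killed 12 weeks after the last dose, or earlier if they had lost much weight. The design text gives an age of 34 weeks, while an age tag gives postnatal week 6. The labels do not say whether Ptpro was deleted in all cells, and all 6 libraries are from carcinogen-treated mice. By reads of Xist against reads of Y-linked genes, 2 libraries labelled Ptpro-KO and 1 labelled WT were taken as female. The sex term used below rests on that assignment.

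The libraries hold 25745240 to 39827467 reads. Ptpro, a receptor-type tyrosine phosphatase, went against its labels: it had 1094, 1824 and 1921 reads in libraries labelled Ptpro-KO, against 174, 9 and 67 reads in those labelled WT. Directions below are therefore between labelled libraries. All 12 squamous epithelium markers (such as Krt5, Krt14 and Trp63) were detected, with sums of 12395 to 15776 CPM (read counts scaled to a common library size, with TMM factors) in libraries labelled Ptpro-KO, against 28385 to 37374 CPM in those labelled WT. Several libraries stood apart in markers of other tissues. The sum of 9 stomach markers was 17666 CPM in Ptpro-KO replicate 3, 29.9 CPM in replicate 1 and 5.23 CPM in replicate 2, against 0.214 to 0.797 CPM in libraries labelled WT. The sum of 5 thyroid markers was 782 CPM in Ptpro-KO replicate 2 and 4.68 to 26.6 CPM in the other 2 of that label, against 1.39 to 1.89 CPM in WT. Skeletal muscle markers were low in Ptpro-KO replicate 3 (78.8 CPM) and in WT replicate 2 (55.7 CPM), and 5167 to 12722 CPM in the other 4 libraries. The part of these tissues in the results below was not tested. In bulk tumour RNA, fewer cells of a type and less RNA per cell cannot be told apart.

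Transglutaminases join glutamine to lysine side chains and so weld envelope proteins such as involucrin, loricrin and the small proline-rich proteins into an insoluble sheet. Tgm1 is anchored to the keratinocyte membrane, Tgm3 and Tgm5 act in the upper layers of squamous epithelium, and Tgm2, tissue transglutaminase, is broadly expressed, also in stroma. Peptidylarginine deiminases (Padi1, Padi3) turn arginine into citrulline in keratins, filaggrin and trichohyalin. Caspase-14 and the aspartic protease Asprv1 take part in filaggrin processing, and St14 (matriptase) is a membrane serine protease that starts a protease cascade in epithelia.

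The sequences just upstream of the start sites are printed for the 3 transglutaminases with lower levels in libraries labelled Ptpro-KO and for the neighbouring genes Padi1 and Padi3, whose levels lay in opposite directions. Each is 150 bases ending 1 base before the RefSeq start nearest to the start of the main transcript (RefSeq, GRCm38.p6), 5′ to 3′ on the strand of the gene. Capitals mark TATAAA or CACCC on either strand (GGGTG is the reverse complement of CACCC). The windows are chr14:55713089-55713238 on the minus strand for Tgm1, chr2:130012190-130012339 on the plus strand for Tgm3, chr2:121085842-121085991 on the minus strand for Tgm5, chr4:140845779-140845928 on the minus strand for Padi1 and chr4:140810649-140810798 on the minus strand for Padi3.
Tgm1: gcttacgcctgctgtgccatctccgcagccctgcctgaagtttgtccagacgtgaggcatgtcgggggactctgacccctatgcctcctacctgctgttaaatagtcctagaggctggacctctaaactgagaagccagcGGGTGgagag
Tgm3: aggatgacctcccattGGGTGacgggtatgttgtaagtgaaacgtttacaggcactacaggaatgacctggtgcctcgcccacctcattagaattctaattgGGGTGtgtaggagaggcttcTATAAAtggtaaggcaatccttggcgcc
Tgm5: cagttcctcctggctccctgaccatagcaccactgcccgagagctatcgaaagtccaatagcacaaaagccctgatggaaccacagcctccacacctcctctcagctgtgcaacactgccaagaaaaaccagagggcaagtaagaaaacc
Padi1: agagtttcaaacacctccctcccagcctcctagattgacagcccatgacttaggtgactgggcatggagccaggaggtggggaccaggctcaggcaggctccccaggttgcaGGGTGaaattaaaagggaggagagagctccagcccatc
Padi3: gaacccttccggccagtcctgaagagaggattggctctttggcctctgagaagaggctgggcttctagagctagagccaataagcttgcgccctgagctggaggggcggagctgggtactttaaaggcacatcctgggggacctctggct

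Of the 9 genes, 7 had a promoter in the RefSeq table, and Tgm2 and St14 did not. 4 motifs were searched on both strands of the 150 bases, all chosen with the expression values known. TATAAA was present only in Tgm3 among the 7, and in 7.57% of the 32851 promoters of the table. CACCC, the core bound by Klf factors, was present in Tgm1, Tgm3, Casp14, Asprv1 and Padi1, 5 of 7, and in 37.4% of all promoters. The AP-1 motif TGANTCA was in 0 of the 7 and in 4.24% of all, and the Grainyhead motif AACCNGTT in 0 of the 7 and in 1.05% of all. A match describes these letters and is not evidence of binding.

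Tgm1, the membrane transglutaminase, fell, and it alone of the 9 genes passed the test (edgeR quasi-likelihood, Benjamini-Hochberg adjusted p under 0.05), in a background where 2.29% of tested genes were called lower and 1.81% higher, 4.10% in all, in libraries labelled Ptpro-KO. Without a test, 5 genes had all 3 libraries labelled Ptpro-KO below all 3 labelled WT (Tgm1, Tgm3, Tgm5, Casp14, Padi3), against 15.7% of tested genes. Padi1 and St14 had them all above, against 16.8% of tested genes, and Tgm2 and Asprv1 overlapped. In either direction 7 of the 9 did not overlap, against 32.5% of tested genes. The median log2 fold change was -1.10 over the 9 genes and 0.03 over all tested genes. DESeq2 called 6 of the 9 (Padi1 and St14 higher, Tgm1, Tgm3, Tgm5 and Padi3 lower), in a background of 9.57% higher and 8.36% lower, 17.9% in all.

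**Figure D1:**
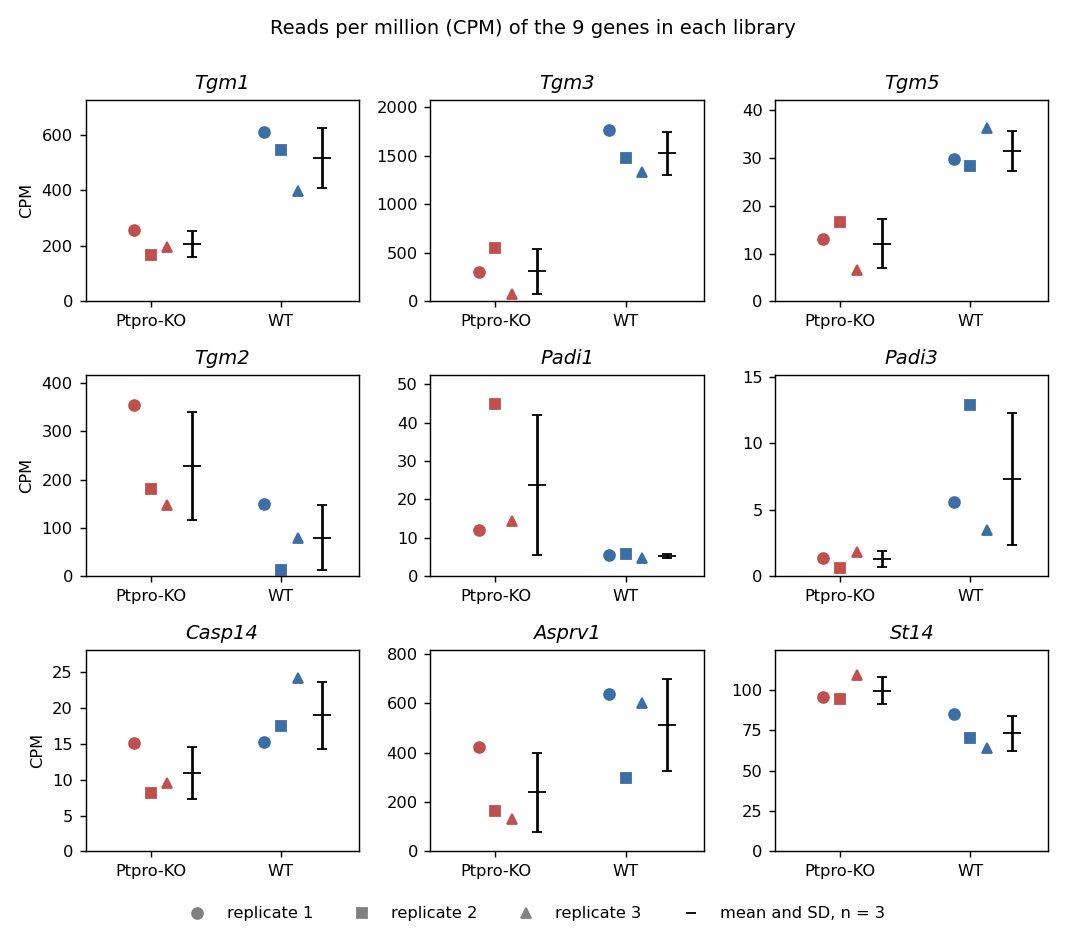
CPM of each gene by library, with 1 panel per gene and libraries labelled Ptpro-KO left of those labelled WT. Points are libraries, and the black marks beside them are mean and SD (n = 3). Tgm1, Tgm3, Tgm5, Padi3 and Casp14 lie lower in the libraries labelled Ptpro-KO, Padi1 and St14 higher, and Tgm2 and Asprv1 overlap.

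Tgm1 (ENSMUSG00000022218, chr14:55700009-55713926, minus strand) had 258, 167 and 197 CPM in libraries labelled Ptpro-KO, against 609, 545 and 398 CPM in those labelled WT. The highest library labelled Ptpro-KO stayed under the lowest labelled WT. The means were 207 ± 46.2 CPM in Ptpro-KO and 517 ± 108 CPM in WT (SD, n = 3 each), 2.50-fold higher in WT. The edgeR log2 fold change was -1.32 (SE 0.23) with adjusted p = 0.0432, just under the threshold. Leaving out any 1 of the 6 libraries ended the call (edgeR adjusted p 0.0774 to 0.132), while the log2 fold change stayed between -1.54 and -1.19. Without Ptpro-KO replicate 2, WT replicate 2 or WT replicate 3, edgeR called 0 genes among all tested. DESeq2 gave an adjusted p of 1.06e-05. 1 transcript, ENSMUST00000002389, held 98.8% to 99.0% of its reads.

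Tgm3 (chr2:130012349-130050399, plus strand), a cytosolic zymogen that is activated by cleavage, had 303, 547 and 73.3 CPM in libraries labelled Ptpro-KO, against 1772, 1477 and 1330 CPM in those labelled WT. The WT libraries were close together, and the libraries labelled Ptpro-KO spread widely below them, lowest in replicate 3, the library with the stomach markers. The means were 308 ± 237 CPM in Ptpro-KO and 1526 ± 225 CPM in WT. The log2 fold change of -2.31 (SE 0.68) did not pass (edgeR adjusted p = 0.112; DESeq2 adjusted p = 0.00228). Without Ptpro-KO replicate 3 it was -1.85 (edgeR adjusted p = 0.0553), and without replicate 2, the highest of that label, -3.02 (edgeR adjusted p = 0.101).

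Tgm5 (chr2:121046111-121085841, minus strand) had 13.1, 16.6 and 6.62 CPM in libraries labelled Ptpro-KO, against 29.8, 28.3 and 36.2 CPM in WT. The groups did not overlap. The log2 fold change was -1.38 (SE 0.34), similar in size to that of Tgm1, with edgeR adjusted p = 0.0822 and DESeq2 adjusted p = 0.00242.

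Tgm2 (chr2:158116402-158146436, minus strand), which also acts outside cells on matrix proteins, had 355, 181 and 147 CPM in libraries labelled Ptpro-KO, against 149, 13.3 and 78.6 CPM in those labelled WT. Ptpro-KO replicate 3 lay just under WT replicate 1, and WT replicate 2 was far below all others. The log2 fold change of 1.50 (SE 0.83) did not pass (edgeR adjusted p = 0.325; DESeq2 adjusted p = 0.163). Fibroblast markers (8 genes) summed to 4264, 4723 and 3088 CPM in libraries labelled Ptpro-KO, against 1972, 421 and 890 CPM in WT. Macrophage markers (9 of 10 listed genes were in the files) summed to 1589, 1227 and 934 CPM in libraries labelled Ptpro-KO, against 607, 132 and 231 CPM in WT. Both sums were lowest in WT replicate 2, where Tgm2 was lowest, and their part in the Tgm2 values was not tested. Endothelium markers (7 genes) overlapped, at 171 to 278.8 CPM in libraries labelled Ptpro-KO against 166 to 259 CPM in WT. The log2 fold change of Tgm2 was 0.99 without WT replicate 2 (edgeR adjusted p = 0.364), 1.00 without Ptpro-KO replicate 1 (edgeR adjusted p = 0.587) and 2.30 without WT replicate 1 (edgeR adjusted p = 0.228). DESeq2 called it without WT replicate 1 alone (adjusted p = 0.0204).

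**Figure D2:**
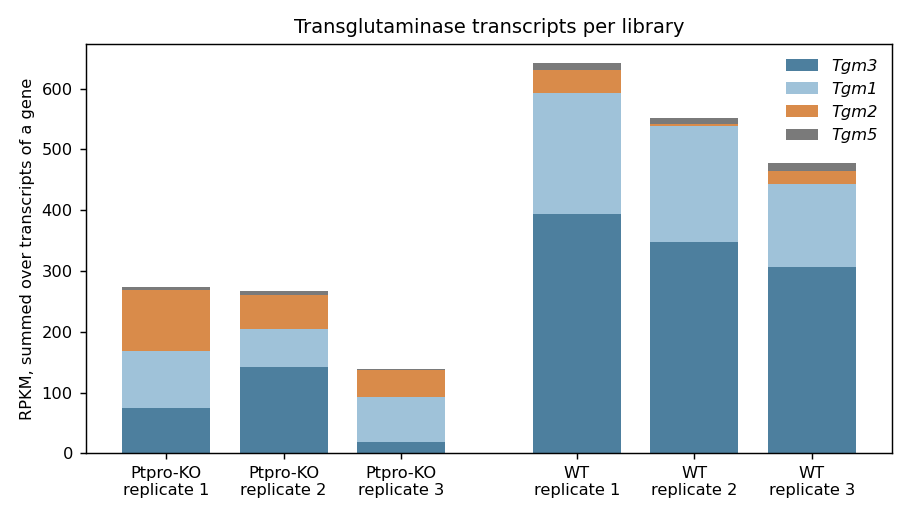
RPKM of the 4 transglutaminase genes stacked by library, libraries labelled Ptpro-KO left of those labelled WT. The sums are 274, 267 and 139 RPKM in Ptpro-KO and 641, 552 and 477 RPKM in WT. Tgm3 takes 61.3% to 64.4% of the sum in WT.

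Per transcript length (RPKM, reads scaled to transcript length and library size), the 4 transglutaminases summed to 274, 267 and 139 in libraries labelled Ptpro-KO, against 641, 552 and 477 in those labelled WT. The shares of Tgm3 and Tgm1 were alike among the WT libraries and differed among those labelled Ptpro-KO. Tgm3 made up 27.2%, 53.1% and 13.5% of the sum in Ptpro-KO, against 61.3%, 63.1% and 64.4% in WT. Tgm2 made up 36.9%, 20.4% and 31.2% in Ptpro-KO, against 5.97%, 0.660% and 4.41% in WT, with no overlap. Each share also depends on the sum, which was lower in libraries labelled Ptpro-KO. Tgm2 itself was narrowly apart in RPKM (lowest in Ptpro-KO 43.5, highest in WT 38.3) and overlapped in CPM. Tgm1 made up 37.1% ± 14.95 in Ptpro-KO and 31.3% ± 2.96 in WT (SD, n = 3 each), and Tgm5 2.16% ± 0.391 in Ptpro-KO and 2.14% ± 0.600 in WT.

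Padi1 (chr4:140812983-140845778, minus strand) and Padi3 (chr4:140785365-140810648, minus strand) lie 2334 bases apart, and their fold changes had opposite signs. Padi1 had 12.0, 44.8 and 14.4 CPM in libraries labelled Ptpro-KO, against 5.48, 5.90 and 4.84 CPM in those labelled WT. All 3 were above WT, and replicate 2, the library with the thyroid markers, was the highest. Its log2 fold change was 2.14 (SE 0.54; edgeR adjusted p = 0.0862; DESeq2 adjusted p = 0.00121), and 1.28 without that library (edgeR adjusted p = 0.0661).

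Padi3 had 50, 27 and 70 reads (1.38, 0.633 and 1.84 CPM) in libraries labelled Ptpro-KO, against 194, 324 and 97 reads (5.63, 12.9 and 3.45 CPM) in those labelled WT. All 3 libraries labelled Ptpro-KO lay below the lowest labelled WT. The log2 fold change was -2.51 (SE 0.64; edgeR adjusted p = 0.0850; DESeq2 adjusted p = 0.00139), and -1.83 without WT replicate 2, the highest library (edgeR adjusted p = 0.188). A second transcript held 33.3% of the 27 reads of Ptpro-KO replicate 2. The log2 ratio of Padi1 to Padi3 was 3.07, 6.02 and 2.93 in libraries labelled Ptpro-KO, against -0.04, -1.12 and 0.48 in WT. In WT replicate 2 Padi3 was the higher gene (12.9 CPM against 5.90 CPM for Padi1), and in WT replicates 1 and 3 they were closer. The exact permutation test of the ratio gave p = 0.1, the smallest that 3 against 3 allows (adjusted p = 0.25 over 10 ratios). In libraries labelled Ptpro-KO, Padi1 lay wholly above WT and Padi3 wholly below. The ratio therefore could not overlap, and its p adds nothing to those separations.

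Casp14 (chr10:78711991-78718294, minus strand) had 15.1, 8.12 and 9.59 CPM in libraries labelled Ptpro-KO, against 15.3, 17.5 and 24.2 CPM in WT. The groups did not overlap, with Ptpro-KO replicate 1 only just under WT replicate 1. Its log2 fold change was -0.80 (SE 0.30; edgeR adjusted p = 0.172; DESeq2 adjusted p = 0.0831).

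Asprv1 (chr6:86628164-86629710, plus strand), a single-exon gene for a retroviral-like protease, had 424, 164 and 130.04 CPM in libraries labelled Ptpro-KO, against 637, 299 and 601 CPM in WT. The groups overlapped, since Ptpro-KO replicate 1 lay above WT replicate 2. The log2 fold change was -1.10 (SE 0.53; edgeR adjusted p = 0.268), and -1.83 without Ptpro-KO replicate 1 (edgeR adjusted p = 0.108). Per length it was the most abundant of the 9 genes in libraries labelled Ptpro-KO (162 ± 104 RPKM, not apart from Tgm3 or Tgm1 beyond their spread) and second to Tgm3 in WT (316 ± 109 RPKM against 349.5 ± 42.9 RPKM, overlapping).

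St14 (chr9:31089402-31131853, minus strand) had 95.3, 94.2 and 109 CPM in libraries labelled Ptpro-KO, against 84.7, 70.3 and 63.9 CPM in WT. The groups did not overlap, and their means were 1.36-fold apart. Its log2 fold change was 0.45 (SE 0.14; edgeR adjusted p = 0.119; DESeq2 adjusted p = 0.0388). The DESeq2 call was lost in 5 of 6 fits that left out 1 library (DESeq2 adjusted p 0.0621 to 0.191) and kept without WT replicate 1 (DESeq2 adjusted p = 0.00249). St14 relative to Spint1, its membrane inhibitor, overlapped between the groups (log2 ratio 0.12 ± 0.36 in Ptpro-KO and 0.05 ± 0.05 in WT; exact permutation p = 1). St14 relative to Tgm1 did not overlap, at -1.04 ± 0.34 in Ptpro-KO and -2.81 ± 0.16 in WT (exact permutation p = 0.1, adjusted p = 0.25 over 10 ratios). With St14 wholly above WT and Tgm1 wholly below, this ratio could not overlap, so its p adds nothing to those separations.

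**Figure D3:**
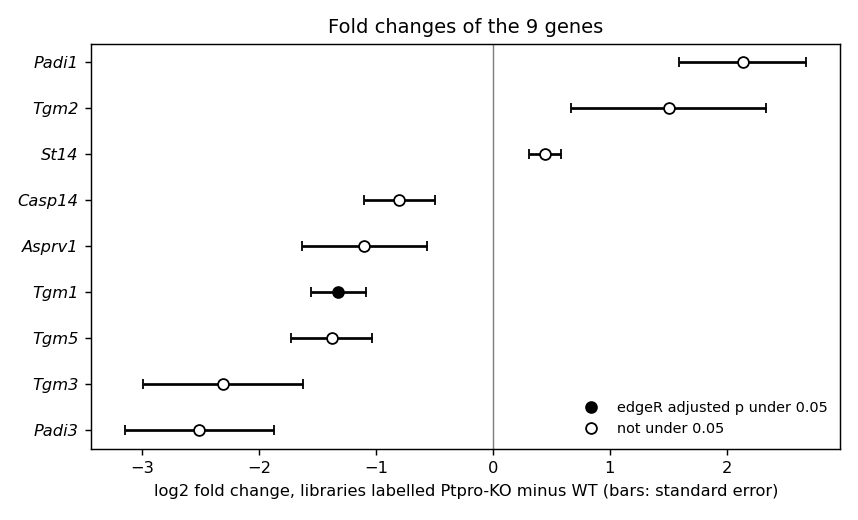
Log2 fold change (libraries labelled Ptpro-KO minus WT) of each gene from edgeR, with a standard error computed from the fold change and its F statistic. Filled markers passed adjusted p under 0.05, which Tgm1 alone did.

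Per length, the order of levels in WT was Tgm3, Asprv1, Tgm1, St14, Tgm2, Tgm5, Casp14, Padi3, Padi1. In libraries labelled Ptpro-KO it was Asprv1, Tgm3, Tgm1, Tgm2, St14, Padi1, Tgm5, Casp14, Padi3. Neighbours in the Ptpro-KO order were apart in every library only between Tgm2 and St14, St14 and Padi1, and Casp14 and Padi3. In the WT order they were apart between Tgm1 and St14, Tgm5 and Casp14, and Casp14 and Padi3.

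The squamous markers were themselves lower in libraries labelled Ptpro-KO: the mean log2 CPM of the 12 was 9.48 in Ptpro-KO and 10.55 in WT. Each gene was therefore also set against that mean in its own library. Tgm1 then differed by -0.25 (exact permutation p = 0.6), Tgm5 by -0.39 (p = 0.6, exact permutation), Asprv1 by -0.14 (exact permutation p = 0.9) and Casp14 by 0.26 (exact permutation p = 0.5), all overlapping. Tgm3 differed by -1.64 and Padi3 by -1.29 (exact permutation p = 0.2 each), also overlapping. Tgm2 (3.05), Padi1 (2.94) and St14 (1.53) did not overlap (exact permutation p = 0.1 each, adjusted p = 0.3 over 9 genes). The marker mean was 9.30 to 9.57 in libraries labelled Ptpro-KO and 10.43 to 10.63 in WT. Padi1 and St14 already lay above WT in CPM, so their separation on this scale was fixed and their p adds nothing. Tgm2 overlapped in CPM and was apart only after the marker mean was subtracted. The marker mean itself differed by -1.08, which raises every difference on this scale by that amount. The edgeR log2 fold change of St14 alone was 0.45. The share of all tested genes that do not overlap on this scale was not computed. The part of squamous cell content in the values was not tested.

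**Figure D4:**
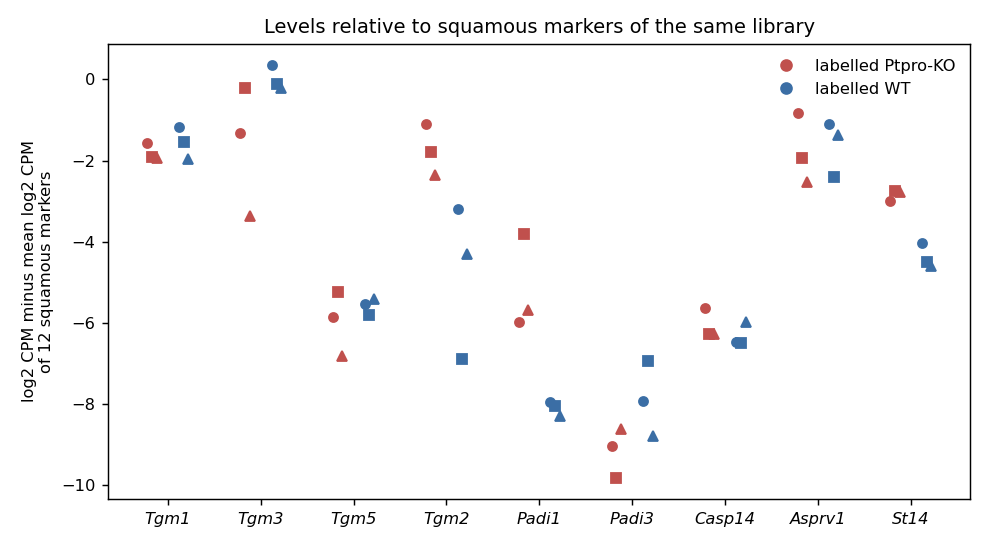
Log2 CPM of each gene minus the mean log2 CPM of the 12 squamous markers in the same library, libraries labelled Ptpro-KO and WT side by side. Tgm2, Padi1 and St14 lie above WT in all libraries labelled Ptpro-KO, and the other 6 overlap.

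By the smallest root mean square difference of centred log2 CPM over the 6 libraries, the genes most like Tgm1 among all tested were 2010109I03Rik (0.104) and Fam167a (0.139). Those most like Tgm3 were Ces1b (0.339) and Calm4 (0.375), those most like Tgm2 were Htra3 (0.160) and Gpr133 (0.230), and those most like Padi3 were Krt84 (0.408) and Atp13a4 (0.412). Among the 9 genes, Tgm1 was nearest to Casp14 (0.465) and Tgm5 to Tgm1 (0.542). Tgm2 was far from all of them, its nearest being St14 (1.33). These distances describe likeness over 6 libraries only.

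The neighbouring pathway genes were counted from 7 lists of 77 genes, of which 73 were tested: 2 rose and 17 fell, with a median log2 fold change of -0.80, against 1.81% called higher, 2.29% called lower and a median of 0.03 over all tested genes. The 19 calls became 0 when Ptpro-KO replicate 2, WT replicate 2 or WT replicate 3 was left out. Over all tested genes these fits also called 0. The list calls were 4, 12 and 4 without Ptpro-KO replicate 1, Ptpro-KO replicate 3 and WT replicate 1. Over all genes those fits called 41, 253 and 50 higher and 52, 243 and 82 lower. A term for sex left 6, with 64 called higher and 122 lower over all genes. Of the 12 squamous markers 6 fell and 0 rose (median -1.16 on the log2 scale), and their part in the list counts was not tested. Of the 23 other late proteases and nucleases, 5 fell and 0 rose: Tmprss13 (log2 fold change -1.60, edgeR adjusted p = 0.0125), Blmh, Klk14 (-1.27), Capn1 (-0.92) and Klk8 (-1.39). Blmh, which breaks down deiminated filaggrin peptides, had 133, 132 and 123 CPM in libraries labelled Ptpro-KO, against 305, 299.8 and 393 CPM in WT (log2 fold change -1.36, edgeR adjusted p = 0.0152). Prss8, the prostasin that matriptase activates, averaged 24.6 ± 12.7 CPM in Ptpro-KO and 26.9 ± 3.19 CPM in WT and did not pass (edgeR adjusted p = 0.869).

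Of the 8 protease inhibitors 4 fell and 0 rose. Spink5, which restrains kallikreins, averaged 303 ± 34.1 CPM in Ptpro-KO and 1749 ± 441 CPM in WT (log2 fold change -2.53, edgeR adjusted p = 0.0125). Csta1 (-2.58), Serpinb5 (-1.25) and Cst6 (-1.52), a cystatin that in mouse skin controls the cathepsins that process Tgm3, fell as well. Of the 16 envelope substrates 3 fell and 0 rose: Sprr1b (-2.20), Evpl (-0.79) and Tchh (-1.58), all targets of transglutaminase cross-linking. The abundant Krt13 (-1.33) and Krt4 (-0.97) did not pass (edgeR adjusted p = 0.141 and 0.508).

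Of the 10 matriptase substrates and partners 2 rose and 1 fell. F2rl1, the receptor PAR2 that matriptase and prostasin can activate, averaged 42.8 ± 10.9 CPM in Ptpro-KO and 10.9 ± 4.38 CPM in WT (log2 fold change 1.97, edgeR adjusted p = 0.0430). Epcam, which matriptase cleaves and which is also on the simple epithelium marker list, averaged 279.4 ± 124 CPM in Ptpro-KO and 50.3 ± 21.9 CPM in WT (2.47, edgeR adjusted p = 0.0434). Scnn1g, the gamma subunit of the epithelial sodium channel, fell (-1.65, edgeR adjusted p = 0.0438). The 8 simple epithelium markers summed to 1215 to 2409 CPM in libraries labelled Ptpro-KO, against 94.8 to 223 CPM in WT, and their part in these values was not tested. Of the 12 transcription factors of late keratinocyte genes 4 fell and 0 rose: Zfp750 (-0.87), Ovol1 (-1.67), Grhl1 (-0.85) and Hopx (-1.07). Klf4, whose CACCC core was searched above, did not pass (-0.36, edgeR adjusted p = 0.581). Of the other transglutaminase and deiminase genes 0 of 4 tested were called.

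**Figure D5:**
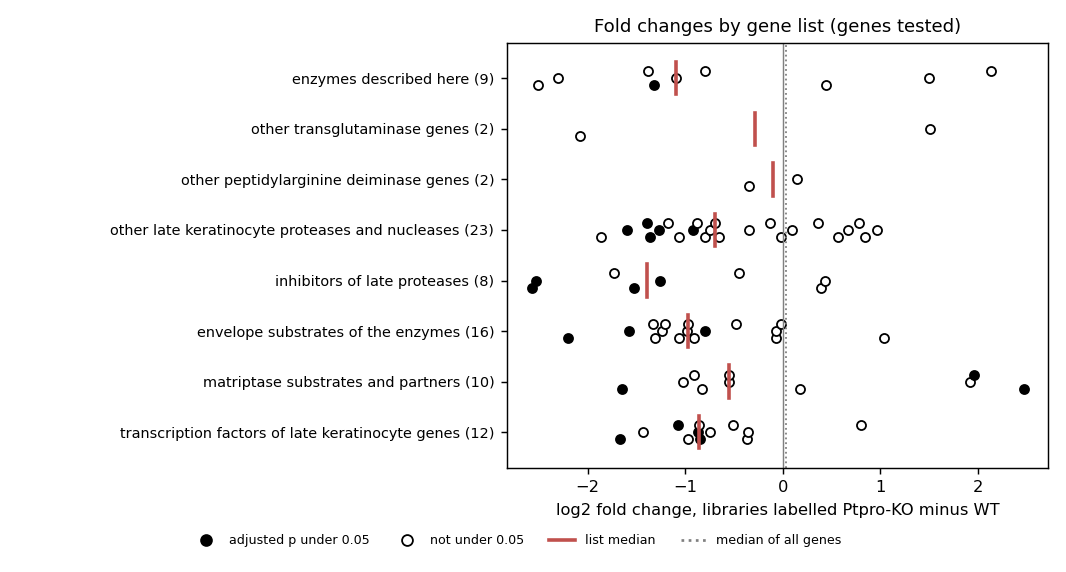
Log2 fold change of each tested gene by list (number tested in brackets), libraries labelled Ptpro-KO minus WT. Filled points passed edgeR adjusted p under 0.05, red bars are list medians and the dotted line is the median of all genes. The 2 genes called higher are both in the list of matriptase substrates and partners.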

How the data were processed

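RNA from 6 tumours was sequenced on an Illumina HiSeq 2500, and the submitters' processing notes name Bowtie 0.12.2 and mm10. The deposited files hold read counts and RPKM per transcript, per the file headers. The authors also deposited gene tables of FPKM and of scaled counts, a normalized signal. The sources used here do not say how isoform reads were shared or whether strand was kept. Another 2 columns of those tables stayed out.

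Reads were added up over the transcripts of each symbol, and 0 reads lay on entries without a name. Genes were filtered with filterByExpr (10 counts in 3 libraries, 15 in total), scaled by TMM and tested with edgeR 4.0.16 (R 4.3.3) quasi-likelihood, Ptpro-KO minus WT, with Benjamini-Hochberg adjustment over 17663 genes. The common biological coefficient of variation was 0.398. Each SE of an edgeR fold change was computed as its absolute value over the square root of the quasi-likelihood F statistic. Libraries held 25745240 to 39827467 reads. Log2 CPM used a prior count of 2. The pipeline was tested on simulated data. Alternatives used DESeq2 1.42.0 and limma 3.58.1. Positions are from GENCODE M21 (GRCm38). No library was a copy of another of its label (chi-square over degrees of freedom 66.9 to 307). P-values measure the spread between samples that the design text gives as separate mice. Exact permutation tests were two-sided.

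The members and lists were chosen with earlier results of these data known. Genes named from the lists were those called (up to 6 a list), the 3 most abundant, and those in a ratio, and for each member its nearest genes. Results for some listed genes are not reported here.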

Additional observations from a re-analysis of the deposited data

How the results depend on the processing

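Of the 9 genes, edgeR called 1, and DESeq2 called 6. The count was 0 with limma on unfiltered log2(FPKM + 1), with a replicate block, with a term for sex, and without both replicate 1 libraries. Leaving out 1 library gave 0 in each edgeR fit and 5 to 7 with DESeq2 (an alternative chosen after seeing the data), a range of 0 to 7. Over all tested genes, these edgeR fits called 0 to 253 higher and 0 to 243 lower. The DESeq2 fits called 1054 to 1735 higher and 976 to 1566 lower. The replicate block called 133 higher and 104 lower over all genes, and the sex term 64 and 122. Limma on unfiltered FPKM called 181 and 261, and the fit without both replicate 1 libraries 0. Tgm1 had adjusted p = 0.0595 under the replicate block and 0.0537 under the sex term. Of the pathway lists, edgeR called 19 genes, DESeq2 36, limma on unfiltered FPKM 11, the replicate block 3, the sex term 6 and the fit without both replicate 1 libraries 0. Leaving out 1 library gave 0 to 12 with edgeR and 33 to 42 with DESeq2. Genes apart from WT relative to squamous markers numbered 3, and 3 to 7 without 1 library. That scale includes the lower marker mean of libraries labelled Ptpro-KO, and the share over all genes was not computed. Same-numbered samples had deviations correlated at 0.539, 0.0803 and -0.243 across genes, and differently numbered ones at -0.614 to 0.408. With 3 libraries per label, these values cannot settle whether the numbers pair the mice. Without TMM, 630 genes were called higher and 294 lower, against 320 and 405 with it, and the median over all genes was 0.185, against 0.0343. The log2 fold change of no member changed sign in any of the 28 settings.

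Signs turned for the fold changes of some non-members, and for some ratios and marker-relative values of members. Leaving out 1 library, with edgeR or DESeq2, gave log2 fold changes of -1.04 to 0.63 for Padi4, -0.18 to 0.082 for Ctsd and -0.60 to 0.15 for Prss8. Without TMM, Ctsd was at 0.13 and Prss8 at 0.038, a CPM filter put Ctsd at 0.00058, and without both replicate 1 libraries Prss8 was at 0.23. Leaving out 1 library also gave ratio differences of -0.57 to 0.21 for Tgm5 to Tgm1, -0.14 to 0.18 for St14 to Spint1 and -0.30 to 0.43 for Asprv1 to Tgm1. Relative to squamous markers it gave -0.75 to 0.033 for Tgm5 and -0.61 to 0.24 for Asprv1. The cause was not tested.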

Other observations

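Casp6, a caspase on the list of other late proteases, was named after its values were seen. It averaged 27.2 ± 4.38 CPM in libraries labelled Ptpro-KO and 13.9 ± 3.48 CPM in those labelled WT (SD, n = 3 each; edgeR adjusted p = 0.0764). It did not pass the threshold, and all 3 libraries labelled Ptpro-KO lay above all 3 labelled WT.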
